A study of Mus musculus with 9 samples.

Results

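The genes described here are 44 interferon-stimulated genes of the mouse on a list of names. All 44 were in the deposited table of 22036 genes and all passed the filter on low values, so they are 44 of the 14955 genes tested. Their RNA was sequenced from microglia, the macrophages that live in brain tissue, of wild-type C57BL/6 female mice. Young mice were 6 months old, middle-aged mice 15 months and old mice 23 months, with no treatment named in the labels. There were 3 libraries per age, and each held RNA from cells sorted by flow cytometry from 3 mice and pooled, so the spread between libraries is one between pools and not between single animals. The sources used here do not name the gate of the sort. The comparison asks how the interferon-stimulated genes of microglia differ between these ages.

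Type I interferons are secreted when a cell senses foreign or misplaced nucleic acid. They bind the receptor IFNAR, whose kinases JAK1 and TYK2 phosphorylate STAT proteins. STAT2 and IRF9 are subunits of the complex ISGF3, which binds the interferon-stimulated response element in the promoters of its target genes. The targets include sensors of viral RNA and DNA, enzymes and binding proteins that limit viral replication, and regulators such as IRF7 and USP18 that raise or dampen the response. In microglia a state rich in these transcripts is known from ageing, infection and neurodegeneration.

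The deposited values are on a log2 scale and the read depth behind them is unknown. On this scale genes with low values vary little between libraries, with a median pooled SD of 0.045 below a value of 5 against 0.163 between 9 and 11, so that differences of low genes are understated; of the members, 3 had a mean between 7 and 9 and the other 41 lay above 9. One library stood apart: old replicate 3 lay at 29.9 on the first principal component, which held 34.7% of the variance, against -14.4 to 5.9 for the other 8. Of 13 microglia markers 12 were tested, and Tmem119, a defining one, had a value of 15.20 to 15.52 over the libraries. The 12 as a list were lower in old than in young libraries, with a median log2 difference of -0.22 and 4 positive. All 13 monocyte and all 14 neutrophil markers also passed the filter, with S100a8, a neutrophil calprotectin subunit, at 14.46 to 16.82 and Ccr2, a monocyte chemokine receptor, at 12.67 to 13.79. In such bulk samples, fewer cells of a type and less RNA per cell cannot be told apart.

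Promoters of 5 members are printed to show where letters that match the core of the interferon-stimulated response element occur. Oas1a, Slfn5 and Phf11b passed the test as higher in old than in young libraries, whereas Ifit3 and Isg15, chosen after their values were seen, did not pass the test. RefSeq promoters on GRCm38.p6 were found for 33 of the 44 members. Each window ran from 250 bases before to 50 bases after the RefSeq start. It was searched on both strands for GAAANNGAAA, where N is any base. The motif is the core of the interferon-stimulated response element, and matches to it may overlap. It was found in 20 of the 33 members (60.6%), against 435 of 10737 genes tested that had a promoter (4.05%). Shown are the 160 bases that end just before the RefSeq start, written 5′ to 3′ on the strand of the gene, with the matches in capitals. That start can differ from the gene positions given below, which are from GENCODE. The Slfn5 stretch lies inside its GENCODE gene, which begins at 82951349. The Phf11b stretch overlaps the 5′ end of its GENCODE gene, at 59341351. The stretches are chr5:120907526-120907685 on the minus strand for Oas1a, chr11:82951942-82952101 on the plus strand for Slfn5, chr14:59341331-59341490 on the minus strand for Phf11b, chr19:34583369-34583528 on the plus strand for Ifit3 and chr4:156200819-156200978 on the minus strand for Isg15.
Oas1a: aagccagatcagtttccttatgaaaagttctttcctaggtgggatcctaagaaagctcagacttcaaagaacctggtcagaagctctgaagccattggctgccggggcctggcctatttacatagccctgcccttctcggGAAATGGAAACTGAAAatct
Slfn5: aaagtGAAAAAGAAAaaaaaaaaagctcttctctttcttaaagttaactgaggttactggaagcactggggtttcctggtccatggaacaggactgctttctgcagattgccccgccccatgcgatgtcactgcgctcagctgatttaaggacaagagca
Phf11b: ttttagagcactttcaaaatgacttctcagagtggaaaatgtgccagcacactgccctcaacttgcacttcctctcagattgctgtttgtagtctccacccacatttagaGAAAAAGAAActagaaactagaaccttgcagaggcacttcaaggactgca
Ifit3: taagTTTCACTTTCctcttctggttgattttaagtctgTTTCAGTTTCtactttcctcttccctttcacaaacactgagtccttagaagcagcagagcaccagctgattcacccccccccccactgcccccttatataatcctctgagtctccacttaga
Isg15: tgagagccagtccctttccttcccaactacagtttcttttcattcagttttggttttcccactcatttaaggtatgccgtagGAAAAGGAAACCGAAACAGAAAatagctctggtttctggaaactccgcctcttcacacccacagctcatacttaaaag
In Oas1a a pair of overlapping matches began 20 and 14 bases before the start. Slfn5 had 1 match, in an A-rich stretch, that began 155 bases before the start, and Phf11b 1 match at 50 bases. Ifit3 carried matches on the opposite strand at 156 and 122 bases, and Isg15 had 3 overlapping ones at 78, 72 and 66 bases. It was present in 4 of the 6 members called higher that had a promoter in the table, and in 16 of 27 members that were not called. These shares were not tested against each other. Ifitm3, the fourth of these, had its matches only after the start and is not printed. A match is a description of the letters and does not show binding.

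Between 6 and 23 months, 9 of the 44 interferon-stimulated genes (20.5%) rose and none fell, against 1.7% of all genes tested that were higher and 0.301% that were lower (limma, Benjamini-Hochberg over 14955 genes, adjusted p under 0.05). They were Ifi27l2a, Oas1a, Slfn5, Rtp4, Usp18, Phf11b, Ifitm3, Oasl2 and Irf7, with folds of 1.51 to 1.95. The median log2 difference over the 44 members was 0.35, against -0.01 over all genes tested, and 40 of the 44 differences were positive. In 28 members (63.6%) every old library lay above every young one, a pattern found in 12.2% of all genes. Gbp7 alone had every old library below every young one, a pattern found in 12.3% of all genes. The members were chosen with earlier results of these data known. These shares, and those given below for the other steps, therefore describe the members and do not test the class. The F test over the 3 ages called 2 members, Ifi27l2a (adjusted p = 0.0149) and Oas1a (adjusted p = 0.0288), against 0.836% of all genes. The count moved from 9 when single libraries were left out. It was 1 without young replicate 1, 2 without young replicate 2, young replicate 3 or old replicate 3, 4 without middle-aged replicate 1 or old replicate 2, and 5 without middle-aged replicate 2 or old replicate 1.

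**Figure D1:**
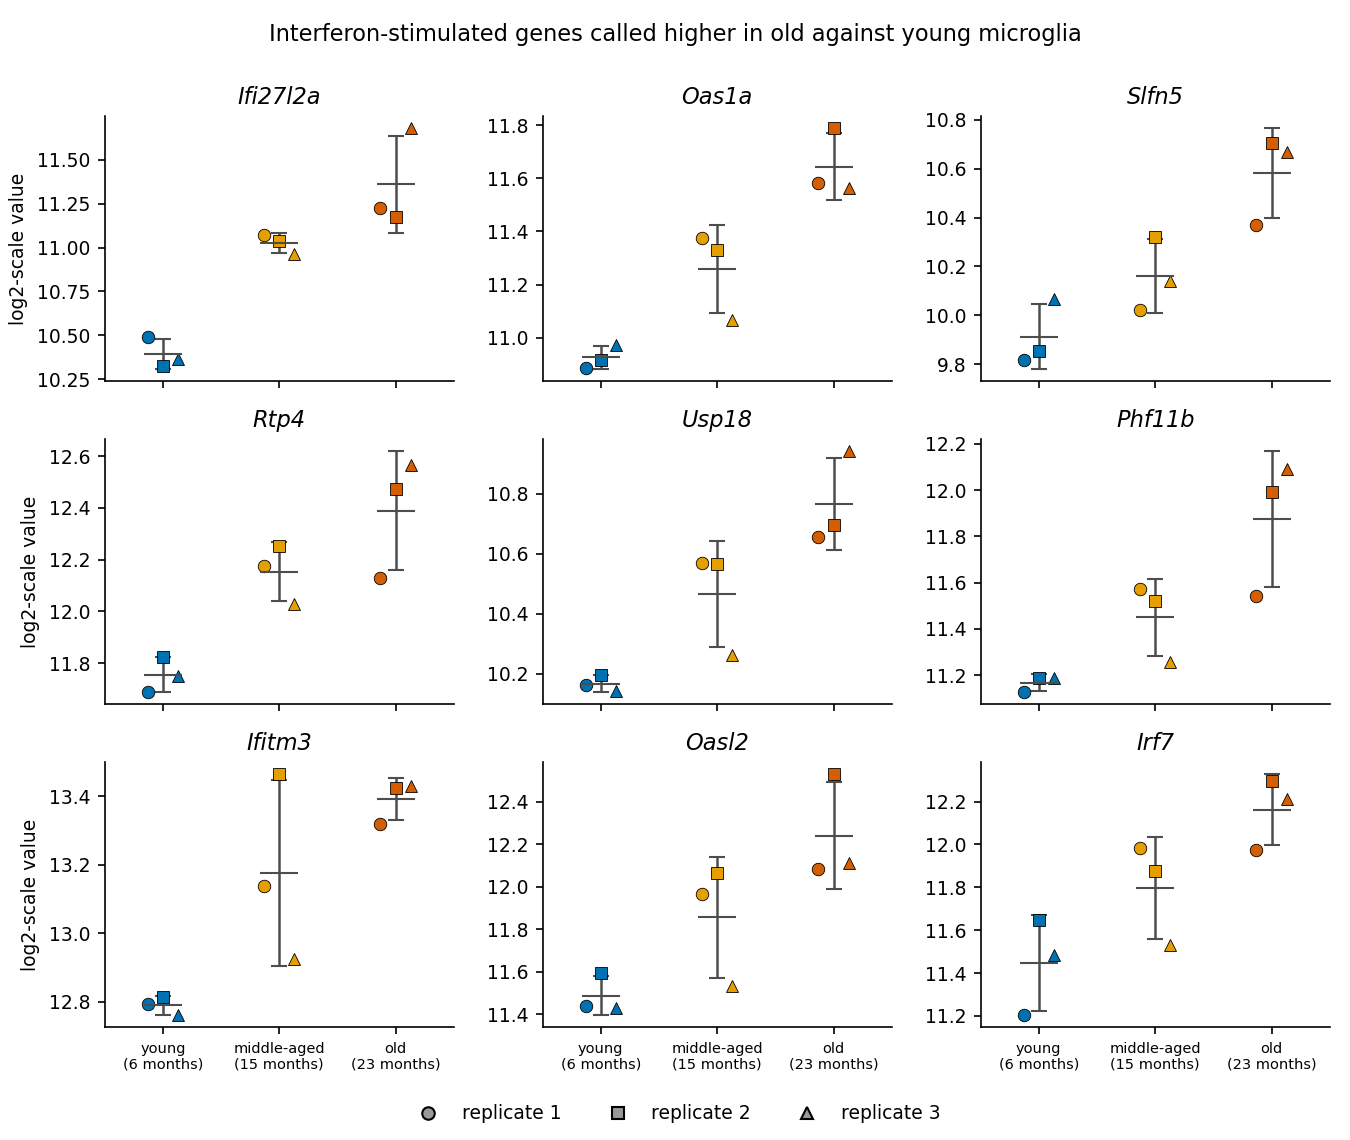
Deposited log2-scale value of the 9 members called in old against young, 1 panel per gene, with 1 point per library and the mean ± SD of each age (n = 3). In all 9 genes the 3 old libraries lie above the 3 young ones, as for Ifi27l2a, at 11.17 to 11.68 in old and 10.33 to 10.49 in young libraries.

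Of the 3 signalling members, Irf7 alone passed the test as higher in old than in young libraries. Irf7 (chr7:141262706-141266481, GRCm38), the transcription factor that amplifies the production of interferon alpha, had log2 values of 11.20, 11.65 and 11.49 in young libraries, 11.98, 11.88 and 11.53 in middle-aged ones and 11.98, 12.29 and 12.21 in old ones. All old libraries were above all young ones, while the middle-aged libraries overlapped both. The difference between old and young was 0.72 ± 0.15 (log2, SE, n = 3 against 3), 1.64-fold, with a limma adjusted p of 0.0424. Irf7 stayed called in 1 of the 9 fits that each left out 1 library. Stat2, a subunit of ISGF3, is named after its values were seen. Stat2 had values of 11.65, 11.71 and 11.70 in young, 11.81, 11.60 and 11.60 in middle-aged and 12.01, 12.28 and 12.09 in old libraries. Young and middle-aged libraries overlapped, and all old ones were higher than both. The log2 difference of old against young Stat2 was 0.44 ± 0.10, which missed the threshold (limma adjusted p = 0.0571). Irf9, the DNA-binding partner of STAT2, showed a log2 difference of 0.02 ± 0.11 between old and young (limma adjusted p = 0.932).

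None of the 7 nucleic acid sensors passed the test. Their median log2 difference between old and young was 0.36. Zbp1, a sensor of left-handed nucleic acid, had the smallest F test p of this group, with values of 8.79, 8.81 and 8.74 in young, 9.17, 9.21 and 8.82 in middle-aged and 9.19, 9.49 and 9.21 in old libraries. Its old and middle-aged values were all above the young ones, and the old-young difference was 0.52 ± 0.13 (log2, SE; limma adjusted p = 0.0682). Ifi204, a DNA-binding PYHIN protein, differed by 0.66 (limma adjusted p = 0.0684). The other sensors ranged from -0.04 for Eif2ak2, the kinase PKR, to 0.37 for the PYHIN gene Ifi207. The RNA helicases of this group differed among themselves: 0.36 for Dhx58 (LGP2), 0.28 for Ifih1 (MDA5) and 0.04 for Ddx58 (RIG-I), none past the threshold.

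In the OAS family, whose synthetases make the short oligoadenylates that activate RNase L, 2 of 5 members passed the test as higher in old libraries. Oas1a (chr5:120896256-120907521) had values of 10.89, 10.92 and 10.97 in young, 11.38, 11.33 and 11.07 in middle-aged and 11.58, 11.79 and 11.56 in old libraries. The ages of Oas1a did not overlap at either step. Its difference between old and young was 0.72 ± 0.11 (log2, SE), 1.64-fold (limma adjusted p = 0.00911). Oasl2 (chr5:114896936-114912234), an OAS-like protein with ubiquitin-like domains, had values of 11.44, 11.59 and 11.43 in young, 11.97, 12.07 and 11.53 in middle-aged and 12.08, 12.53 and 12.11 in old libraries. Every old library of Oasl2 lay above all others, and middle-aged replicate 3 fell within the young range. The difference was 0.75 ± 0.16, 1.69-fold (limma adjusted p = 0.0417). Oas2 and Oasl1 differed by 0.22 and -0.01, neither past the threshold. Oas3 showed the widest spread in old libraries, at 9.56, 10.58 and 8.74 against 9.32 to 9.61 in young ones, and its difference of 0.17 ± 0.35 is smaller than that spread; with single libraries left out it ran from -0.31 to 0.61. Oas1a shares 57.6% of its 50-base transcript windows with other genes, chiefly Oas1g, so reads of the copies may have been split or merged by the authors' counting.

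None of the 4 IFIT genes, whose proteins bind viral RNA, and none of the 5 GTPases of the Mx and GBP families passed the test. Ifit3 had values of 11.28, 11.40 and 11.24 in young, 11.68, 11.58 and 11.52 in middle-aged and 11.51, 11.93 and 11.49 in old libraries. All later libraries of Ifit3 were above the young ones, while middle-aged and old overlapped. Its log2 difference of old against young was 0.34 ± 0.13 (limma adjusted p = 0.214), and the other 3 IFIT genes lay between 0.29 and 0.36. Ifit3 and Ifit3b share 51.2% and 45% of their transcript windows with other genes, so reads of these copies may have been split or merged as well. Gbp7, a guanylate-binding protein, had values of 13.59, 13.72 and 13.72 in young, 13.62, 13.67 and 13.32 in middle-aged and 13.38, 13.54 and 13.01 in old libraries. The old libraries of Gbp7 were all below the young ones, with old replicate 3 the lowest, and the difference was -0.37 ± 0.14 (limma adjusted p = 0.221). Its neighbour Gbp2 differed by 0.52 (0.27 to 0.66 with single libraries left out) and Gbp3 by 0.01. Mx1 and Mx2 differed by 0.23 and 0.11, and GENCODE M21 lists Mx2 as a polymorphic pseudogene. The GTPases thus held both the member with the most negative difference and members with positive ones.

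Among 4 membrane and nucleotide effectors, Ifitm3 passed the test as higher in old than in young libraries. Ifitm3 (chr7:141009586-141010770), which blocks the entry of viruses through endosomes, had values of 12.79, 12.81 and 12.76 in young, 13.14, 13.46 and 12.93 in middle-aged and 13.32, 13.42 and 13.43 in old libraries. All middle-aged and old libraries were above the young ones and they overlapped each other. The old-young difference was 0.60 ± 0.12 (log2, SE), 1.52-fold (limma adjusted p = 0.0379). Bst2, the virus tether, differed by 0.40 (limma adjusted p = 0.0853). The neighbouring genes Rsad2, which encodes viperin, and Cmpk2, a nucleotide kinase, differed by 0.27 and 0.24, neither past the threshold.

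Of the 4 genes of the ISG15 system and its relatives, Usp18 alone passed the test as higher in old than in young libraries. Usp18 (chr6:121245906-121270917), the protease that removes ISG15 and restrains the interferon receptor, had values of 10.16, 10.20 and 10.14 in young, 10.57, 10.56 and 10.26 in middle-aged and 10.66, 10.70 and 10.94 in old libraries. No age of Usp18 overlapped the next. The difference between old and young was 0.60 ± 0.12, 1.51-fold (limma adjusted p = 0.0322). Usp18 stayed called in 3 of the 9 fits that each left out 1 library. Isg15, the ubiquitin-like modifier itself, had values of 9.31, 9.46 and 9.55 in young, 9.46, 9.44 and 9.56 in middle-aged and 9.60, 9.71 and 9.35 in old libraries, with all 3 ages overlapping. Its difference was 0.11 ± 0.12 (limma adjusted p = 0.66). Herc6, an ISG15 ligase of the mouse, differed by 0.14 and Trim30a by 0.39, neither past the threshold. All middle-aged and old libraries of Trim30a lay above the young ones (limma adjusted p = 0.0825 in old against young).

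The other 12 members held 4 of the 9 called genes and had the highest median difference of the role groups, 0.58. Ifi27l2a (chr12:103442167-103443680), a small hydrophobic protein strongly induced by interferon, had values of 10.49, 10.33 and 10.36 in young, 11.07, 11.04 and 10.97 in middle-aged and 11.23, 11.17 and 11.68 in old libraries. The ages of Ifi27l2a did not overlap, and old replicate 3 was the highest library. Its difference of 0.97 ± 0.13 (log2, SE), 1.95-fold, was the largest of the 44 (limma adjusted p = 0.0047). Ifi27l2a was also the member that stayed called in old against young in all 9 fits that each left out 1 library. Oas1a stayed called in 8 of them, and no other member in more than 4.

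Slfn5 (chr11:82951349-82964840), of the Schlafen family, had values of 9.82, 9.85 and 10.07 in young, 10.02, 10.32 and 10.14 in middle-aged and 10.37, 10.71 and 10.67 in old libraries. The old libraries were above all others, and the difference between old and young was 0.67 ± 0.13, 1.59-fold (limma adjusted p = 0.0298). Rtp4 (chr16:23520291-23614222), a chaperone of membrane receptors, had values of 11.69, 11.82 and 11.75 in young, 12.18, 12.25 and 12.03 in middle-aged and 12.13, 12.47 and 12.56 in old libraries. Its middle-aged and old libraries overlapped and were all above the young ones. The difference was 0.63 ± 0.12, 1.55-fold (limma adjusted p = 0.0298). Phf11b (chr14:59320964-59341351), a PHD finger protein, had values of 11.13, 11.19 and 11.19 in young, 11.57, 11.52 and 11.26 in middle-aged and 11.54, 11.99 and 12.09 in old libraries. Again the later libraries all exceeded the young ones, with a difference of 0.71 ± 0.14, 1.63-fold (limma adjusted p = 0.0379). Phf11b shares 47% of its transcript windows with other genes, chiefly Phf11a. The other 8 of this group ranged from -0.13 for Parp14, an ADP-ribosyltransferase, to 0.62 for Ifi44 and Sp100, and none passed the test; the difference of Parp14 ran from -0.42 to 0.23 with single libraries left out.

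**Figure D2:**
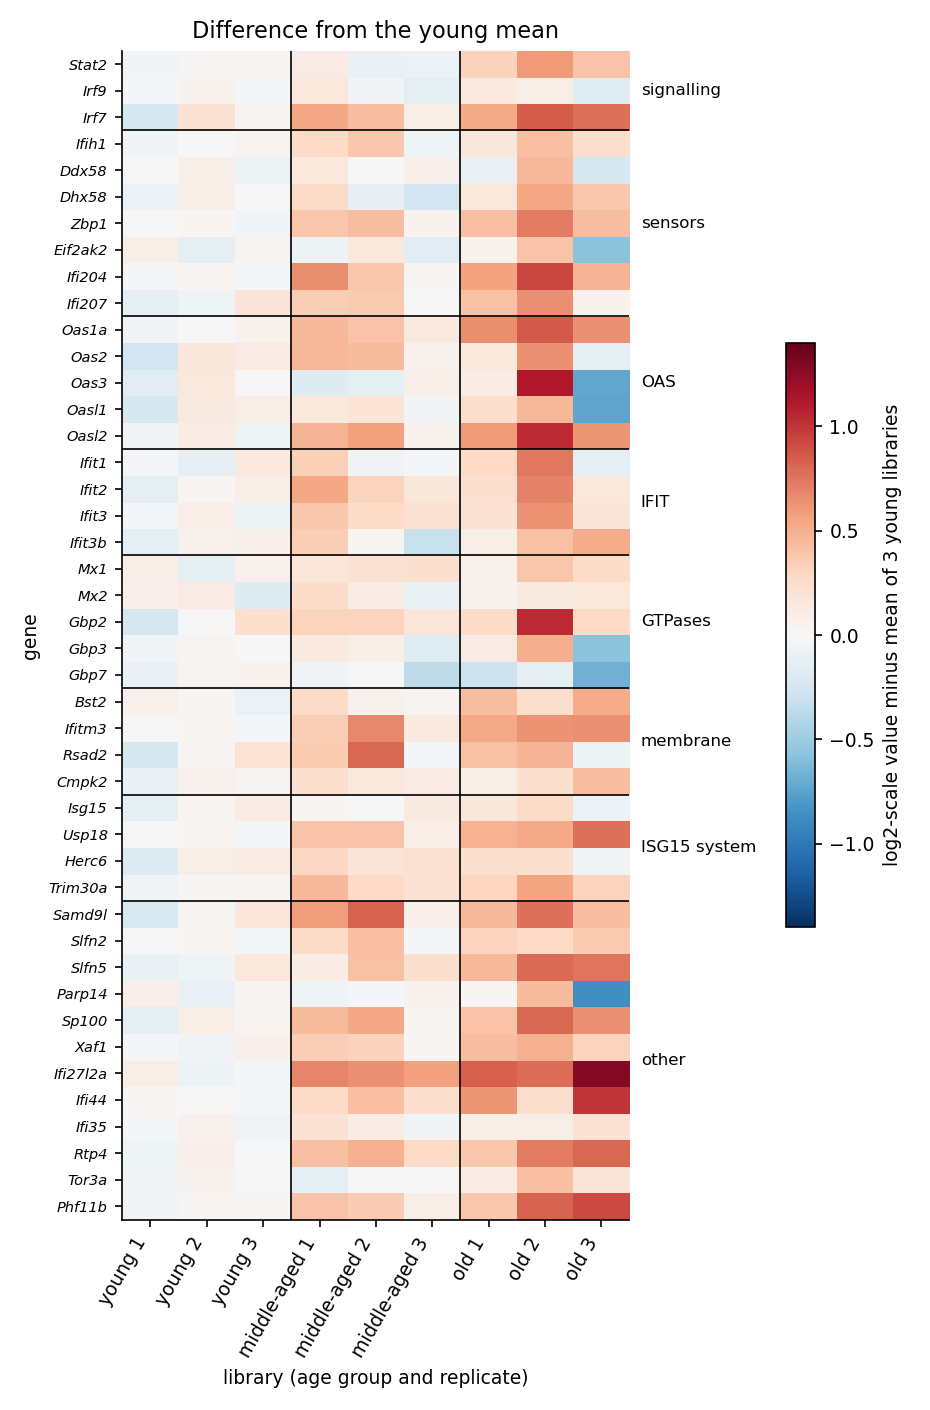
Deposited log2-scale value of each of the 44 members in each of the 9 libraries, as the difference from that gene's mean over the 3 young libraries, with genes grouped by role. Old replicate 2 is the highest old library in 31 of the 44 rows and middle-aged replicate 3 the lowest middle-aged one in 34.

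By 15 months no member was called, where 0.114% of all genes were higher and 0% lower (limma, adjusted p under 0.05). At an unadjusted p under 0.05, 13 of the 44 members (29.5%) passed, against 11.4% of all genes tested. The members' median log2 difference between middle-aged and young was 0.23, against -0.00 over all genes, and 36 were positive. In 14 members (31.8%) all middle-aged libraries lay above all young ones, against 11.6% of all genes, and in 0 members below, against 10% of all genes. Ifi27l2a had the largest difference, 0.63 ± 0.13 or 1.55-fold (limma adjusted p = 0.123). Without old replicate 3, which is in neither group but enters the shared spread, Ifi27l2a was called (limma adjusted p = 0.0177). Samd9l differed by 0.49, Rtp4 by 0.40 ± 0.12, Ifitm3 by 0.39 ± 0.12 and Oasl2 by 0.37 ± 0.16. The 3 signalling members had a median of -0.01 at this step, while the OAS family had the highest median of the role groups, 0.32.

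Between 15 and 23 months no member was called either, where 0.16% of all genes were higher and 0.0134% lower (limma, adjusted p under 0.05). At an unadjusted p under 0.05, 11 of the 44 members (25%) passed, against 10.2% of all genes. The median log2 difference was 0.16, against -0.00 over all genes, with 35 members positive. In 7 members (15.9%), among them Stat2, Slfn5 and Oas1a, all old libraries lay above all middle-aged ones, against 6.47% of all genes, and in 0 members below, against 6.41%. Stat2 had the largest difference at this step, 0.46, followed by Phf11b at 0.43 and Slfn5 at 0.42.

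The steps from young to middle-aged and from middle-aged to old were also set against each other in 1 contrast, which called 0 members and 0% of all genes (limma, adjusted p under 0.05). At an unadjusted p under 0.05 it passed 1 member, Stat2 (0.48 larger at the second step, unadjusted p = 0.0208 by limma), against 7.9% of all genes. The first step was the larger in 27 members and the second in 17. Among all 14955 genes tested the first was the larger in 7473. Of the 44, 30 had positive differences at both steps, which share the middle-aged libraries. In 3 members, Usp18, Oas1a and Ifi27l2a, the ages stood in order with no overlap at either step, as in 1.05% of all genes.

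**Figure D3:**
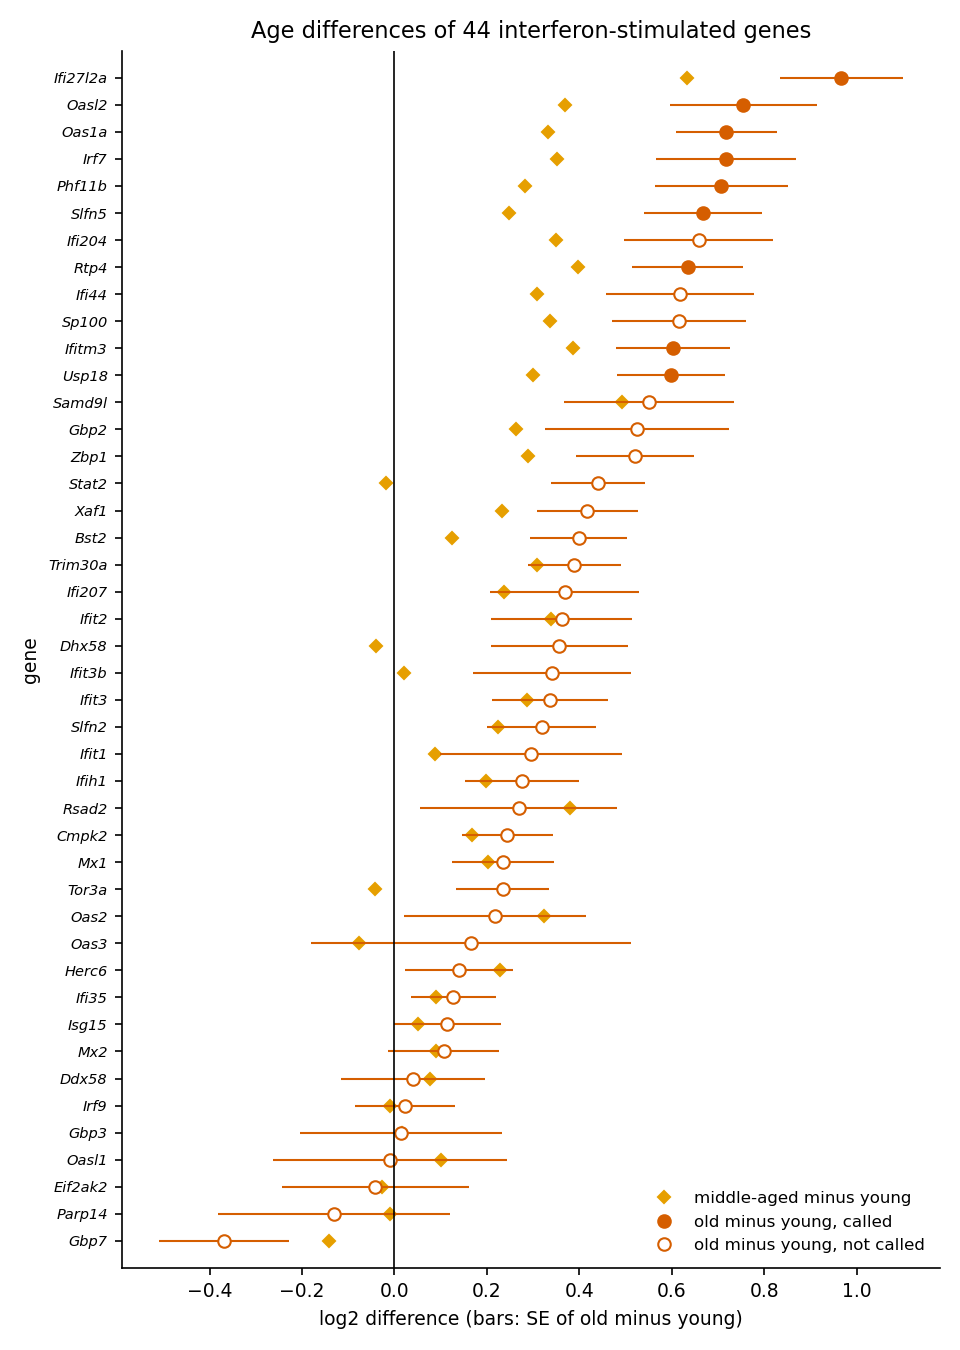
Log2 difference of each of the 44 members between old and young and between middle-aged and young libraries, ordered by the former, whose bars are 1 SE of the limma fit and whose filled points were called. Ifi27l2a is highest at 0.97 in old against young, and Gbp7 lowest at -0.37.

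**Figure D4:**
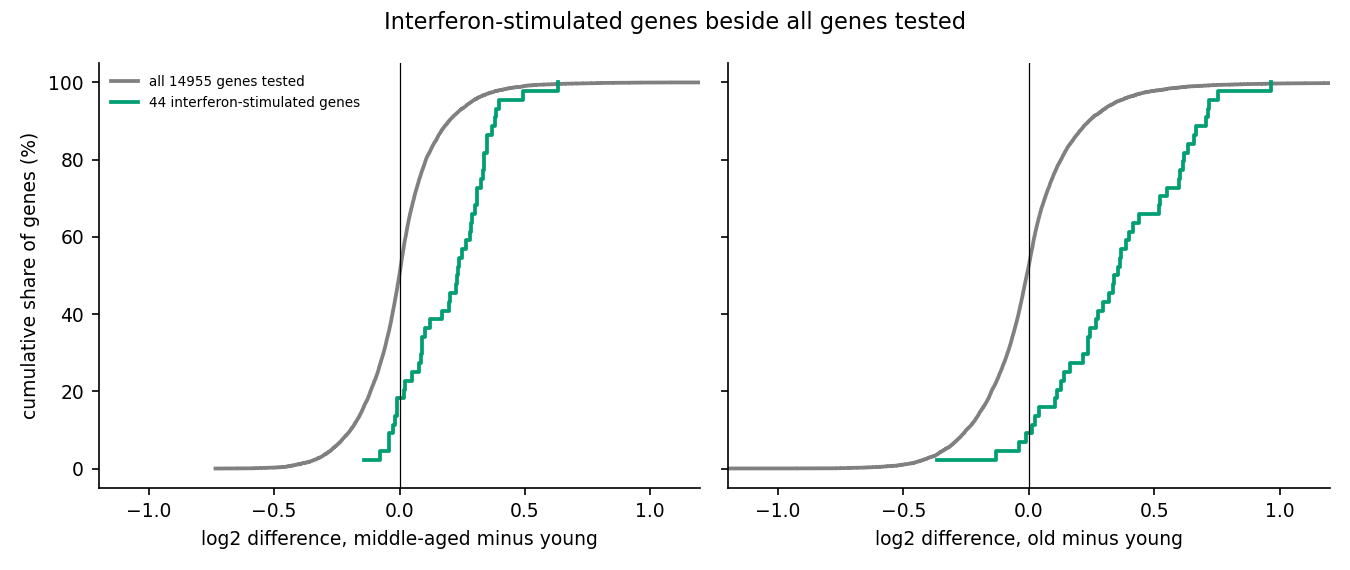
Cumulative share of genes (percent) by log2 difference, for the 44 members and for all 14955 genes tested, in middle-aged minus young (left) and old minus young (right), with an axis that leaves out larger differences. The members' curve lies to the right, with medians of 0.23 and 0.35 against -0.00 and -0.01 for all genes.

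The authors' deposited table of old against young gave adjusted p-values under 0.05 for 19 of the 44 members, all higher, against 4.72% of its genes that were higher and 2.9% that were lower. All 9 members called here were among the 19 in the authors' deposited table; the other 10 were Bst2, Ifi204, Ifi44, Samd9l, Slfn2, Sp100, Stat2, Trim30a, Xaf1 and Zbp1. Log2 folds in the authors' deposited table were larger than those above, with 1.21 for Ifi27l2a (adjusted p = 4.38e-08), 0.99 for Oas1a (adjusted p = 2.65e-10), 0.92 for Oasl2 (adjusted p = 1.94e-05) and 0.79 for Ifitm3 (adjusted p = 4e-13). The same authors' deposited table gave 0.92 for Slfn5, 0.88 for Usp18, 0.87 for Phf11b, 0.83 for Irf7 and 0.78 for Rtp4. Zbp1 stood at 0.94 (adjusted p = 0.00018) in the authors' deposited table. It gave Ifit3 at 0.43 (adjusted p = 0.143) and Gbp7 at -0.40 (adjusted p = 0.149), neither past the threshold in the authors' deposited table. For middle-aged against young, the authors' deposited table had 4 members under 0.05, all higher, against 3.26% of its genes higher and 2.53% lower: Ifi27l2a (log2 fold 0.88, adjusted p = 1.67e-08), Rtp4 (0.50, adjusted p = 0.00416), Ifi44 (0.64, adjusted p = 0.0141) and Trim30a (0.38, adjusted p = 0.0379). For old against middle-aged it had 1 member, Stat2 (log2 fold 0.53, adjusted p = 0.0277), against 0.859% of genes higher and 0.466% lower in the authors' deposited table.

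Other genes of the pathway, on lists written with earlier results of these data known, are given as counts and medians. Of all genes tested, 1.7% were called higher and 0.301% lower in old against young libraries. Of 21 interferon ligands 1 was tested: Ifnb1, which encodes interferon beta, had a value of 4.76 to 4.83 in young, 4.83 to 4.92 in middle-aged and 4.75 to 4.83 in old libraries, a range in which this scale shows little spread. None of 11 receptor and JAK-STAT genes was called between old and young (median log2 difference -0.03). None of 17 genes of interferon induction was called either (median 0.02), and Irf8, a transcription factor of the myeloid lineage, differed by 0.32 ± 0.10 (limma adjusted p = 0.148). Of 15 brakes of the response 1 rose (6.67%) and 0 fell, with 10 positive and a median of 0.10. The gene that rose was Nlrc3, a restrainer of STING signalling, by 0.52 ± 0.11 (limma adjusted p = 0.0414). Of 57 further interferon-stimulated genes 2 rose (3.51%) and 0 fell, with 43 positive and a median of 0.15. The 2 were Lgals3bp, a secreted galectin ligand (0.94 ± 0.12, limma adjusted p = 0.0033), and Ms4a4c, a membrane protein also on the monocyte list (0.93 ± 0.18, limma adjusted p = 0.0327). In middle-aged against young libraries the median of these 57 was 0.01, with 30 positive, against 0.23 and 36 of 44 for the members. Of 14 genes known as targets of interferon gamma 2 rose (14.3%): Cd274, which encodes PD-L1 (0.97 ± 0.12, limma adjusted p = 0.0028), and Tap1, a peptide transporter of antigen presentation (0.56 ± 0.10, limma adjusted p = 0.0236). Of these 14 genes 12 were positive, with a median of 0.21. In 6 (42.9%) every old library lay above every young one and in 1 (7.14%) below, against 12.2% and 12.3% of all genes. The authors' deposited table of old against young gave log2 folds of 1.17 for Lgals3bp, 1.11 for Ms4a4c, 1.23 for Cd274, 0.76 for Tap1 and 0.86 for Nlrc3. In none of these lists did limma call a gene in middle-aged against young or in old against middle-aged libraries (adjusted p under 0.05). The authors' deposited table of middle-aged against young did have genes of these lists under 0.05. Among them were Cd274 (log2 fold 0.80, adjusted p = 7.36e-06) and Ms4a4c (0.73, adjusted p = 0.00182), and, lower, Tdrd7 (-0.33, adjusted p = 0.0471).

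Within an age, the members shared an order of libraries more often than all genes did, a difference that was not tested. Old replicate 2 was the highest of the 3 old libraries in 31 members (70.5%), against 33.2% of all genes, and middle-aged replicate 3 the lowest of its age in 34 (77.3%), against 38.1%. Young replicate 1 was the lowest young library in 27 members (61.4%), against 35.1%. The median SD of the members was 0.083 in young, 0.164 in middle-aged and 0.198 in old libraries, against 0.075, 0.107 and 0.128 over all genes. The values over all genes include low genes, which vary little on this scale. For the 16 members with a mean between 9 and 11 the median pooled SD was 0.164, against 0.163 for all genes in that range. For the 22 members between 11 and 13 it was 0.178, against 0.145. Old replicate 3 divided the members: it lay below the mean of the other old libraries by 1.33 in Oas3, 1.09 in Parp14 and 1.09 in Oasl1, and above it by 0.57 in Ifi44, 0.48 in Ifi27l2a and 0.32 in Phf11b.

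Markers of other cells moved with some of these libraries. The median deviation of the 44 members from each gene's mean was -0.25, -0.16 and -0.12 in the young libraries, 0.12, 0.07 and -0.15 in the middle-aged ones and 0.10, 0.42 and 0.11 in the old ones. For 13 monocyte markers it was -0.37, -0.05 and -0.27 in young, 0.12, 0.38 and -0.16 in middle-aged and -0.06, 0.50 and 0.18 in old libraries. Both lists were highest in old replicate 2 and lowest in young replicate 1. Of the monocyte markers 3 of 13 (23.1%, against 1.7% of all genes) rose between old and young, Plac8, Fn1 and Ms4a4c. The median log2 difference of these 13 markers was 0.34. Their summed linear level was 66732 to 84818 in young, 70538 to 125333 in middle-aged and 72786 to 106140 in old libraries. The 14 neutrophil markers, of which none was called, were highest in middle-aged replicate 2 at 1.01 and lowest in old replicate 1 at -0.82. Their summed linear level was 325421 to 561740 in young, 490366 to 1060740 in middle-aged and 269469 to 546683 in old libraries. Of the 12 microglia markers 2 fell (16.7%, against 0.301% of all genes), Fcrls and Siglech, by 0.39 and 0.37. The median of the 12 was -0.22, with 4 positive. In 7 (58.3%) every old library lay below every young one and in 2 (16.7%) above, against 12.3% and 12.2% of all genes. The summed linear level of the microglia markers was 2059320 to 2353330 in young, 1739590 to 1993680 in middle-aged and 1670880 to 1947110 in old libraries. Of 15 T and NK cell markers 2 rose (13.3%, against 1.7% of all genes), Cd8a and Cd8b1, and 13 were positive (median log2 difference 0.21). In 10 of these markers (66.7%) every old library lay above every young one and in 1 (6.67%) below, against 12.2% and 12.3% of all genes. Their median deviation was -0.12 to -0.04 in young, -0.13 to -0.03 in middle-aged and 0.08 to 0.20 in old libraries, with summed linear levels of 2288 to 2574, 2191 to 2670 and 2612 to 2923. Of 10 markers of border macrophages 1 fell (10%, against 0.301% of all genes), Stab1, and the median was -0.46. In 8 of these markers (80%) every old library lay below every young one and in 1 (10%) above, against 12.3% and 12.2% of all genes. Their summed linear level was 131369 to 140514 in young, 94097 to 116736 in middle-aged and 86818 to 110430 in old libraries. The part of other cells in the members' differences was not tested.

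**Figure D5:**
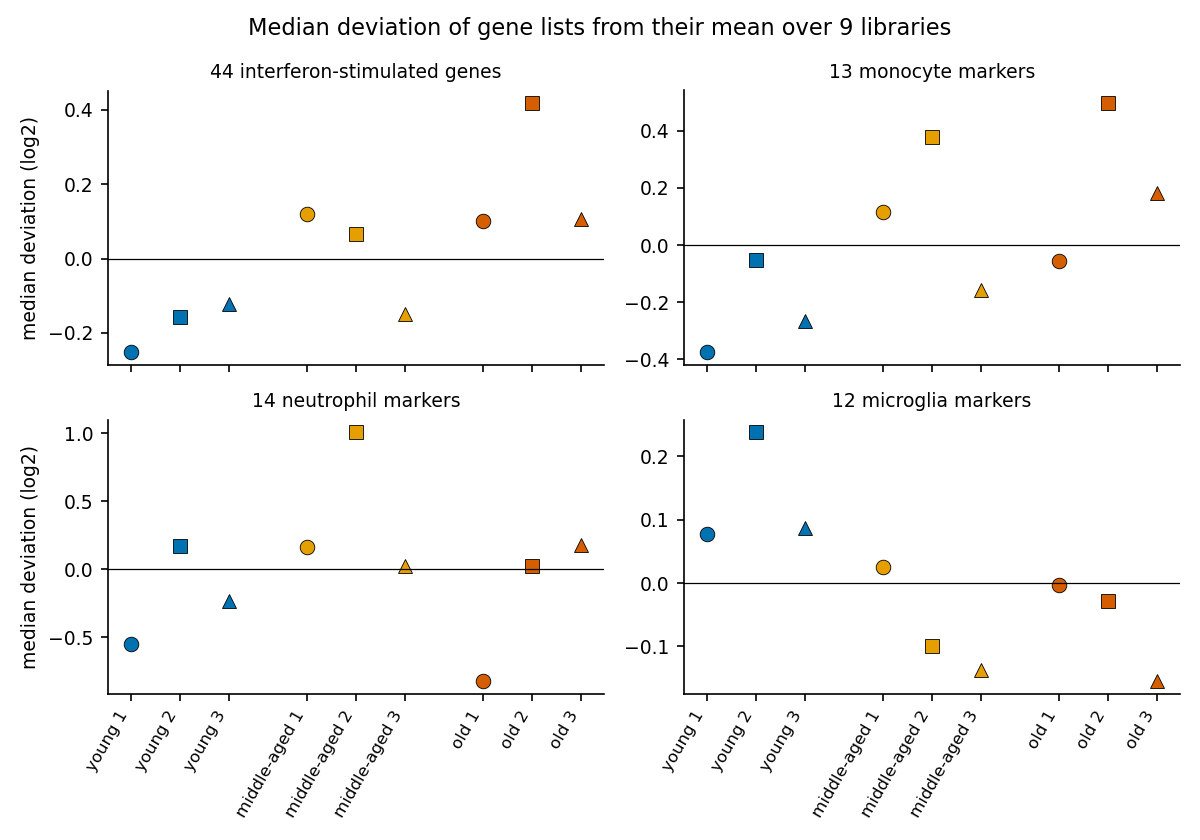
Median deviation from each gene's mean over the 9 libraries, on the log2 scale, for the 44 members and for the monocyte, neutrophil and microglia marker lists, with 1 point per library. The members and the monocyte markers are both highest in old replicate 2, at 0.42 and 0.50, and the neutrophil markers are highest in middle-aged replicate 2, at 1.01.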

How the data were processed

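Per the labels' protocols, a low-input kit (SMARTer Ultra Low) was used on RNA of sorted microglia. Per the submitters' processing notes, CASAVA, cutadapt 1.13, STAR 2.5.3, DESeq2 1.16.1 and the mm10 build were used; the sources used here name no read counter, annotation or transformation. The authors deposited log2-scale values per library, from -2.14 to 20.05. Per the file headers, the authors' deposited comparison tables hold the mean signal, the log2 fold change with its SE, the test score and the p-value, raw and adjusted.

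The planned log2 step was omitted because the values were already on that scale. Genes at 3.32 (log2 of 10) or more in at least 3 libraries were tested, 14955 of 22036. Limma 3.58.1 in R 4.3.3 was fitted with the 3 ages as groups and a variance trend (prior degrees of freedom 4.57, residual 6), with two-sided tests and Benjamini-Hochberg adjustment over all genes tested, threshold 0.05. An exact permutation test of 3 against 3 cannot go below 0.1. The script was tested on simulated data. The members and lists were chosen with earlier results of these data known. Values in every library are given for members called in any test and, in a role group with none, for the one with the smallest F test p; Isg15 and Stat2 were added after their values were seen, and other members are given by differences or ranges. From the other lists, called genes or the one with the smallest F test p are named; a gene that this rule selects is not reported here. Gene positions and shared 50-base windows come from GENCODE M21 on GRCm38, promoters from RefSeq. Alternatives were other filters, scalings, variance models and weights, a pseudocount, a replicate block, fits of only 2 ages, and fits without single libraries.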

Additional observations from a re-analysis of the deposited data

How the results depend on the processing

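The count of members called in old against young, 9, became 3 with no filter on low values, 4 when the 2 ages were fitted alone and 18 with library weights, under which the F test called 17 members and middle-aged against young 1. The F test called 1 member with no filter and 1 with a replicate block. With the replicate block, old against young called 6 members; same-numbered libraries correlated at -0.24 to 0.23 after removal of group means and other pairs at -0.44 to 0.42, so the numbers were not taken to pair the libraries. Leaving out each library gave 1 to 12 members in old against young, 0 to 3 in the F test and 0 to 1 in middle-aged against young, and 12 was reached without middle-aged replicate 3. Old against middle-aged and the difference between the steps called 0 members under every alternative run. The log2 difference of Ifit3 between old and middle-aged, 0.05, ranged from -0.10, reversed, to 0.13 when single libraries were left out, the former without old replicate 2; the cause was not tested. With single libraries left out, the difference changed sign in 7 members in old against young (Ddx58, Eif2ak2, Gbp3, Irf9, Oas3, Oasl1 and Parp14), in 11 in middle-aged against young and in 23 in old against middle-aged; that of Oas2 in old against young, 0.22, fell as low as 0.0078. The members' median difference stayed positive in the fits run, at 0.26 to 0.43 in old against young, 0.17 to 0.32 in middle-aged against young and 0.03 to 0.21 in old against middle-aged. Read depth is unknown and 3 pools per age limit the precision; differences of low genes are understated on this scale.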

Other observations

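Members that lie within 1 Mb of each other on GRCm38 did not all differ alike between old and young. The 4 IFIT genes on chromosome 19 (34550694 to 34650009) differed by 0.29 to 0.36 on the log2 scale, and Irf7 and Ifitm3 on chromosome 7 by 0.72 and 0.60. Within the OAS genes of chromosome 5 (120730333 to 120907521) the differences ran from 0.17 for Oas3 to 0.72 for Oas1a, and in the neighbouring pair Oasl2 and Oasl1 they were 0.75 and -0.01. The guanylate-binding genes on chromosome 3 (142530342 to 142638008) ran from -0.37 for Gbp7 to 0.52 for Gbp2.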
